A study of Mus musculus with 9 samples.

Results

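Axon guidance ligands and receptors are described here: the semaphorins with their plexin and neuropilin receptors, the ephrins with the Eph receptors, the Slits with the Robo receptors, and the netrins with the Unc5 receptors and Dcc. They were picked by a rule on gene symbols that did not use their values, although earlier results of these data were known. Of the 15228 genes in the deposited table, 47 belonged to these families. The mouse annotation holds 71 such genes, and the other 24, Ntn1, Sema3a, Slit1 and Efna1 to Efna4 among them, were not analysed here.

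The libraries came from cells of wild-type mice that had been sorted as retinal ganglion cells (RGCs), the neurons whose axons make up the optic nerve. There were 3 groups of 3 libraries each: Ctrl, from normal uninjured retina; ONC, from retina 3 days after optic nerve crush with PBS as vehicle; and TPEN, from retina 3 days after crush with TPEN, a membrane-permeable zinc chelator. In the methods of the study, mice of both sexes had surgery at 6 to 8 weeks of age, and vehicle or TPEN was injected into the eye right after the crush. No group had an injection without a crush, so crush and injection cannot be told apart in ONC/Ctrl. The sort took cells with CD90 on their surface and without CD48, CD15 and CD57. The sources used here do not say if each library had its own mice, so the p-values measure the spread between these libraries, which may be technical.

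The labelled cell type was checked against marker genes. The RNA of rods dominated every library: the summed level of 7 rod markers was 13371 to 16119 RPKM (reads per kilobase of exon, scaled by the library total), against 285 to 388 RPKM for the 8 of 11 RGC markers that were listed. Rbpms, a marker of RGCs as a class, was at 0.246 to 0.688 RPKM, and Pou4f1, a transcription factor of RGCs, at 0.0746 to 0.678 RPKM. The RGC markers of highest level were the neurofilament genes, with Nefl at 193 to 271 RPKM and Nefh at 21.5 to 31.8 RPKM. Sncg followed at 17.3 to 24.8 RPKM. The name RGCs therefore stands for the sorting gate, and the levels below are those of the whole sorted mixture. In such bulk samples, fewer cells of a type and less RNA per cell cannot be told apart. The libraries held 19946993 to 23109754 reads.

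Axon guidance proteins steer the growing tip of an axon. Semaphorins act through plexins, often with neuropilins as the part that binds the ligand; ephrins and Eph receptors sit on opposing cell membranes and signal in both directions; Slits repel axons through Robo receptors, and netrins attract them through Dcc or repel them through Unc5 receptors. In the retina these systems guide RGC axons to the optic nerve head, across the midline and into a topographic map in the brain, and several of them stay expressed in the adult, where they act in synapses, vessels and glia.

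Guidance genes were at low level in these libraries. Their mean levels ranged from 0.115 RPKM (Slit2) to 20.4 RPKM (Ntng2) with a median of 0.606 RPKM, while the median of all listed genes was 4.10 RPKM. Of the 47 genes, 31 had a mean under 1 RPKM, 41 lay below the median of listed genes, and 6 reached 5 RPKM. The 3 most abundant, Ntng2, Sema3f and Plxnb1, held 46.7% to 52.4% of the summed guidance RPKM of a library. Guidance transcripts are long, with a median exon length of 7204 bases against 3778 bases for all listed genes, and Slit2, the lowest of them, still had 44 to 82 reads per library. Tests were made with limma on log2(RPKM + 0.1), for genes whose mean level reached 0.5 RPKM, which kept 28 guidance genes and left out 19. The values of those 19 are given from a fit of all listed genes without that filter.

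**Figure D1:**
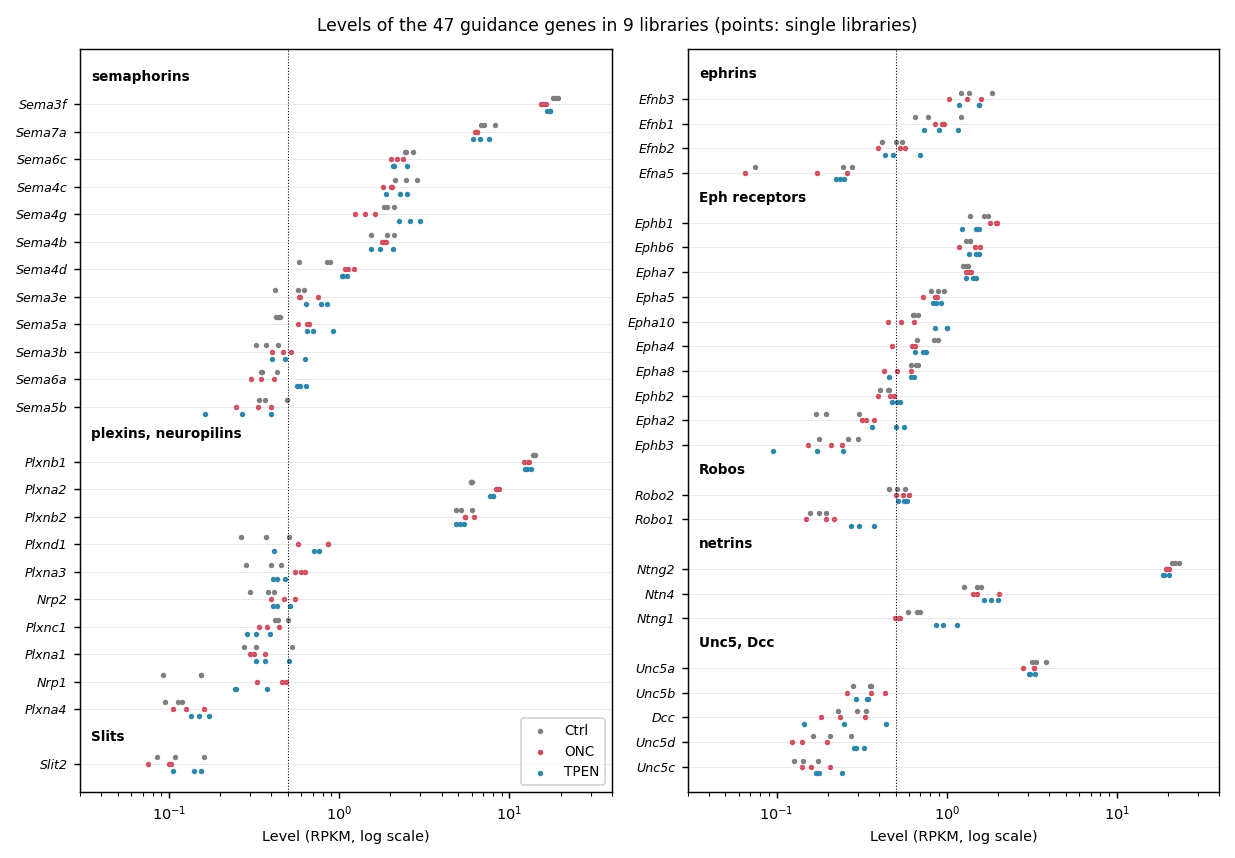
Level of each of the 47 guidance genes in each of the 9 libraries, on a log RPKM axis, with the genes grouped by ligand or receptor family and the points coloured by group; the dotted line is the minimum mean of 0.5 RPKM. Most genes lie below 1 RPKM in all 3 groups, and Ntng2, Sema3f and Plxnb1 lie farthest to the right.

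By system, the semaphorin ligands were the largest class, with 12 listed and 9 tested genes. Their summed level was 36.2 to 39.3 RPKM in Ctrl, 32.7 to 33.5 RPKM in ONC and 36.0 to 37.5 RPKM in TPEN. The ONC libraries were thus below all others in this sum. The 10 plexins and neuropilins, of which 4 were tested, had the ONC libraries above all others, with sums of 27.0 to 28.3 RPKM in Ctrl, 29.4 to 30.6 RPKM in ONC and 28.1 to 29.0 RPKM in TPEN. The 3 netrin genes summed to 23.3 to 25.4 RPKM in Ctrl, 21.4 to 22.8 RPKM in ONC and 21.3 to 23.0 RPKM in TPEN, nearly all of it Ntng2. The sums of the 4 ephrins (2.55 to 3.65 RPKM), the 10 Eph receptors (7.38 to 8.75 RPKM) and the 5 netrin receptors (3.74 to 4.85 RPKM) overlapped between all groups. Slit2 was the 1 Slit listed, and Robo1 and Robo2 together reached 0.633 to 0.887 RPKM. These sums are descriptions and were not tested.

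After crush, 4 guidance genes changed, 2 in each direction and none by 1.5-fold. In ONC/Ctrl, 4 of the 28 tested genes (14.3%) passed an adjusted p under 0.05, where 18.7% of all 13566 tested genes did: Plxna2 and Sema4d were upregulated, and Sema3f and Sema4g were downregulated. None of the 4 reached a 1.5-fold change on the log2(RPKM + 0.1) scale, while 4.58% of all genes passed both limits upward and 0.752% downward. Fold changes on that scale are given as log2 FC, with their standard error (SE). Of all genes tested, 11.7% were upregulated and 6.97% downregulated at the same threshold. Over the 28 genes, 14 had a log2 FC above 0, and the median was -0.05, against 0.02 over all genes. The median size of the log2 FC, without its sign, was 0.21 over the 28 genes and 0.13 over all genes. At an unadjusted p under 0.05, 11 of 28 passed (39.3%), against 31.6% of all genes. The split of calls depended on the scaling: after quantile normalization between libraries, 1 guidance gene was called higher (Plxna2) and 5 lower (Sema3f, Sema4g, Ntng2, Plxnb1 and Epha4).

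Plxna2, a receptor for class 6 and, with neuropilins, class 3 semaphorins, had the smallest adjusted p of the guidance genes. The gene lies at chr1:194618218-194816869 (GRCm38, + strand). Its level was 5.93, 6.05 and 5.93 RPKM in the Ctrl libraries, 8.64, 8.32 and 8.51 RPKM in ONC, and 8.01, 7.72 and 7.98 RPKM in TPEN, from 2044 to 3411 reads. All crush libraries were above all Ctrl libraries, and the ONC libraries were above the TPEN libraries. The log2 FC was 0.50 (SE 0.05, adjusted p = 5.2e-05) in ONC/Ctrl and 0.40 (SE 0.05, adjusted p = 3.7e-04) in TPEN/Ctrl. In TPEN/ONC it was -0.10 (95% interval -0.21 to 0.00, adjusted p = 0.23), so a difference between the crush groups did not pass. Both calls held in all 16 alternative fits, and neither reached 1.5-fold.

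Plxnb1, the receptor of Sema4d and the most abundant plexin, did not follow Plxna2. It was at 14.1, 13.8 and 14.1 RPKM in Ctrl, 12.1, 13.0 and 12.9 RPKM in ONC, and 13.4, 12.7 and 12.3 RPKM in TPEN. Ctrl libraries lay above those of both crush groups, but the log2 FCs of -0.14 in ONC/Ctrl (adjusted p = 0.0571) and -0.13 in TPEN/Ctrl (adjusted p = 0.103) did not pass. The exons of Plxnb1 overlap a gene on the opposite strand, Gm7628, and whether counting used the strand is not given in the sources used here. Plxnb2, the other B plexin tested, was at 4.86 to 6.22 RPKM and overlapped between ONC and Ctrl.

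Sema3f, a secreted semaphorin that repels axons through neuropilin 2 and A plexins, was the most abundant semaphorin. The gene lies at chr9:107681500-107710475 on the - strand. Its level was 18.8, 18.0 and 19.3 RPKM in Ctrl, 16.3, 15.7 and 15.4 RPKM in ONC, and 17.3, 17.4 and 16.7 RPKM in TPEN. The groups did not overlap, with ONC lowest and TPEN in between. It was downregulated in ONC/Ctrl (log2 FC of -0.24, SE 0.04, adjusted p = 0.00277), a call that held in all 16 alternative fits, at less than 1.5-fold. The values were 0.12 in TPEN/ONC (adjusted p = 0.132) and -0.13 in TPEN/Ctrl (adjusted p = 0.0781), neither of which passed.

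Sema4d, a membrane-bound semaphorin that binds B plexins, was the 1 semaphorin upregulated in ONC/Ctrl. It was at 0.885, 0.852 and 0.579 RPKM in Ctrl, 1.13, 1.09 and 1.23 RPKM in ONC, and 1.04, 1.05 and 1.11 RPKM in TPEN. Crush libraries lay above all Ctrl libraries, of which replicate 3 was lowest. The log2 FC in ONC/Ctrl was 0.54 (SE 0.15, adjusted p = 0.0387), and the call was lost in 10 of 15 alternatives. It was lost without any 1 ONC or TPEN library or without Ctrl replicate 3 (adjusted p of 0.054 to 0.115). In TPEN/Ctrl the log2 FC was 0.44 (adjusted p = 0.098). Sema7a, a lipid-anchored semaphorin that binds integrins and plexin C1, was second in level among semaphorins, with 6.84 to 8.25 RPKM in Ctrl, 6.27 to 6.46 RPKM in ONC and 6.08 to 7.60 RPKM in TPEN. Its log2 FC of -0.21 in ONC/Ctrl did not pass (adjusted p = 0.158).

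**Figure D2:**
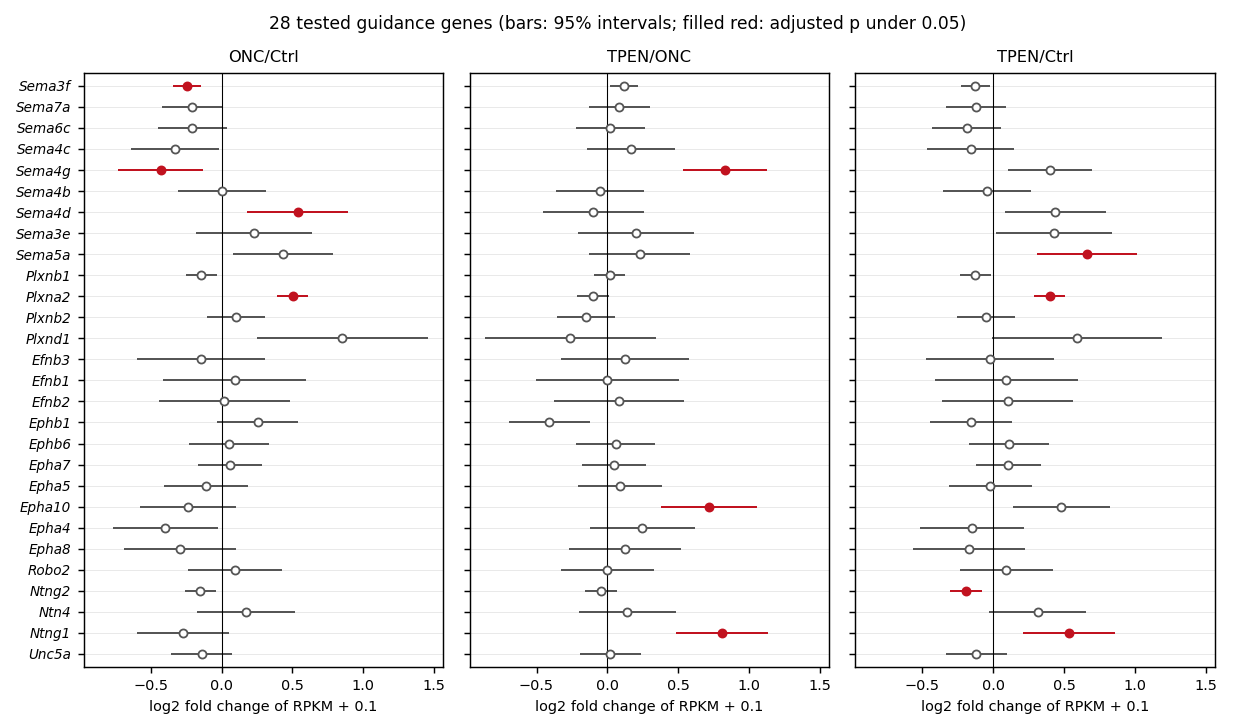
Log2 FC (log2 fold change of RPKM + 0.1) for each of the 28 tested guidance genes in ONC/Ctrl, TPEN/ONC and TPEN/Ctrl, with 95% intervals as bars and filled red points where the adjusted p was under 0.05. Red points number 4, 3 and 4 in the 3 panels, and those of TPEN/ONC all lie to the right of 0.

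When all listed genes were fitted without the filter, further semaphorin receptors of low level were upregulated in ONC/Ctrl. Nrp1, Plxna3, Plxnd1, Sema6a and Epha2 passed there in at least 1 comparison, and were chosen after their values were seen. Sema6a and Epha2 did not pass in ONC/Ctrl. Of these genes, only Plxnd1 met the filter, and it did not pass with it. In the fit without the filter, 7 of the 47 guidance genes passed in ONC/Ctrl. Over all 15228 genes, 19.1% passed (12.6% upregulated, 6.43% downregulated). Of the 10 plexins and neuropilins, 4 were upregulated and none was downregulated. Nrp1, the neuropilin that binds Sema3a and VEGF, had the largest change. It was at 0.155, 0.155 and 0.0916 RPKM in Ctrl, 0.329, 0.458 and 0.489 RPKM in ONC, and 0.245, 0.248 and 0.374 RPKM in TPEN. These levels came from 18 to 110 reads, and both crush groups lay above Ctrl. The mean was 3.18 times as high in ONC as in Ctrl, and the log2 FC of RPKM + 0.1 was 1.17 (SE 0.20, adjusted p = 0.00285), a call that held in all 14 alternatives. In TPEN/Ctrl it was 0.73 (adjusted p = 0.0424) and in TPEN/ONC -0.44 (adjusted p = 0.247). The call in TPEN/Ctrl was lost in 12 of 14 alternatives, among them the fits without each single library other than ONC replicate 1 (adjusted p of 0.0543 to 0.134).

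Plxna3, a receptor for class 3 semaphorins, was at 0.283, 0.395 and 0.455 RPKM in Ctrl, 0.552, 0.630 and 0.597 RPKM in ONC, and 0.432, 0.480 and 0.407 RPKM in TPEN. The ONC libraries were above all others. Its log2 FC in ONC/Ctrl was 0.55 (adjusted p = 0.0418), a call that was lost in 11 of 14 alternatives, among them the fits without each single library other than Ctrl replicate 3 (adjusted p of 0.0539 to 0.13). Plxnd1, the receptor of Sema3e on vessels and some neurons, was at 0.507, 0.373 and 0.266 RPKM in Ctrl, 0.858, 0.859 and 0.572 RPKM in ONC, and 0.411, 0.715 and 0.762 RPKM in TPEN. ONC lay above Ctrl and TPEN overlapped both, with a log2 FC in ONC/Ctrl of 0.85 at an adjusted p of 0.0465 without the filter and 0.0529 with it, since its mean was above the minimum. With the filter it passed without Ctrl replicate 1 (adjusted p = 0.0418), ONC replicate 3 (0.0452) or TPEN replicate 1 (0.0328), and with voom on whole reads (0.00258). The remaining low receptors, Plxna1, Plxna4, Plxnc1 and Nrp2, were at 0.0949 to 0.547 RPKM and overlapped between ONC and Ctrl. Because a gene can pass a filter through the group in which it is high, these counts of receptors are descriptions.

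Several marker lists moved between Ctrl and ONC together with these receptors. The summed level of all 10 listed microglia and macrophage markers was 2.91 to 3.75 RPKM in Ctrl, 43.2 to 45.6 RPKM in ONC and 16.9 to 17.2 RPKM in TPEN, with no marker at 0. Of the 4 astrocyte markers, 3 were listed, with sums of 5.54 to 6.21 RPKM in Ctrl, 27.2 to 28.3 RPKM in ONC and 17.3 to 20.05 RPKM in TPEN. Most of the ONC sum was Gfap, at 2.73 to 2.83 RPKM in Ctrl and 21.8 to 22.9 RPKM in ONC. Aldh1l1 was also higher in ONC, and S100b overlapped. All 8 Müller glia markers summed to 504 to 523 RPKM in Ctrl, 570 to 583 RPKM in ONC and 440 to 452 RPKM in TPEN. Of these, Apoe, Vim and Slc1a3 were higher in ONC than in Ctrl, Glul, Rlbp1, Aqp4 and Hes1 were lower, and Sox9 overlapped. The 7 rod markers summed to 15252 to 16119 RPKM in Ctrl and 13371 to 13688 RPKM in ONC. The part of these cell types in the values of Plxna2, Nrp1, Plxna3, Plxnd1 and Sema4d, and in those of Sema3f and Sema4g, was not tested.

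**Figure D3:**
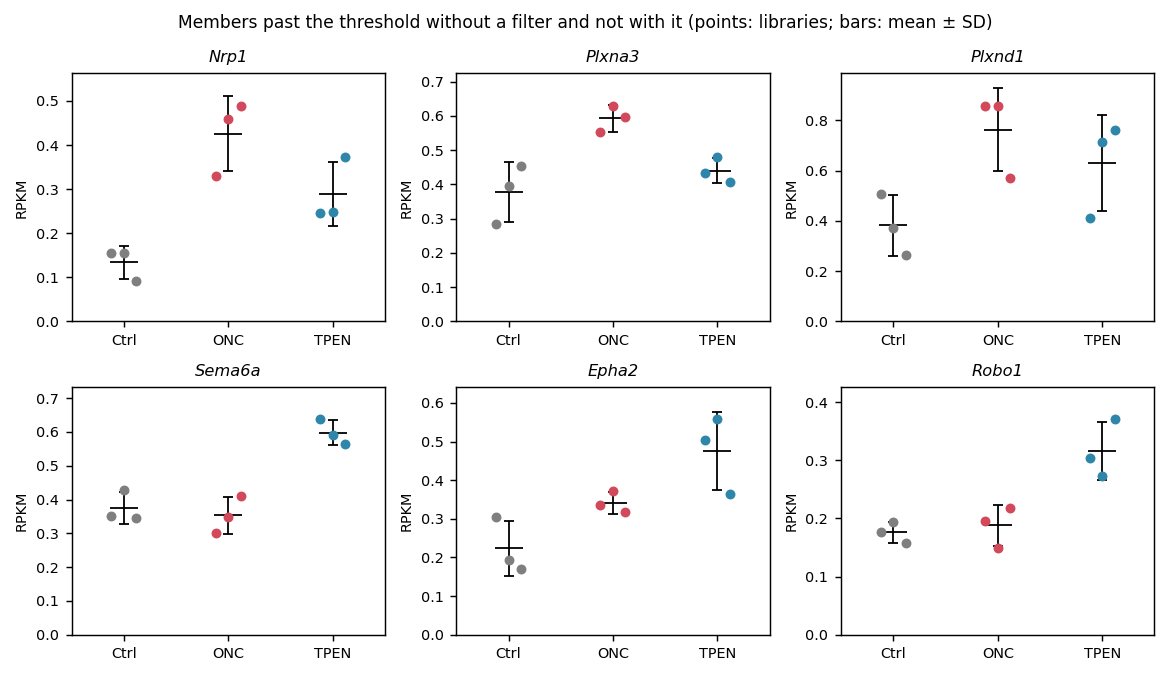
RPKM of 6 guidance genes that passed an adjusted p under 0.05 only in the fit without a filter. Points are single libraries, and bars are the mean ± SD of 3 libraries. With the filter, Plxnd1 did not pass and the others were not tested. Nrp1, Plxna3 and Plxnd1 are highest in ONC, and Sema6a, Epha2 and Robo1 are highest in TPEN.

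TPEN after crush was followed by higher levels of 3 guidance genes and lower levels of none. In TPEN/ONC, Sema4g, Ntng1 and Epha10 passed an adjusted p under 0.05, 3 of 28, where 7.39% of all genes tested did, with 3.24% higher and 4.14% lower. All 3 also changed at least 1.5-fold, and 0.818% of all genes passed both limits upward and 1.21% downward. Of the 28 genes, 20 had a log2 FC above 0 (71.4%), with a median of 0.07, where 6371 of all 13566 genes were above 0 and their median was -0.01. At an unadjusted p under 0.05, 5 of 28 passed (17.9%), against 22.0% of all genes. ONC/Ctrl and TPEN/ONC share the ONC libraries, so their values below are set side by side without a test of one against the other.

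Sema4g, a membrane-bound class 4 semaphorin that binds plexin B2, lies at chr19:44989101-45003397 on the + strand. It was at 2.10, 1.84 and 1.91 RPKM in Ctrl, 1.42, 1.62 and 1.24 RPKM in ONC, and 2.62, 2.25 and 2.97 RPKM in TPEN, from 139 to 289 reads. The groups did not overlap, with ONC lowest and TPEN highest. Its log2 FC was 0.83 (SE 0.13, adjusted p = 0.00532) in TPEN/ONC, and this held in all 16 alternative fits. In ONC/Ctrl it was -0.43 (SE 0.13, adjusted p = 0.0463) and in TPEN/Ctrl 0.40 (adjusted p = 0.0755). The call in ONC/Ctrl was lost in 9 of 16 alternatives, among them the fits without any 1 Ctrl library, ONC replicate 1, ONC replicate 3 or TPEN replicate 1 (adjusted p of 0.0649 to 0.142).

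Ntng1 encodes netrin-G1, a lipid-anchored relative of the netrins that sits on axons and binds the ligand Lrrc4c instead of Dcc or Unc5 receptors. The gene lies at chr3:109780040-110144011 on the - strand. It was at 0.693, 0.588 and 0.665 RPKM in Ctrl, 0.496, 0.523 and 0.533 RPKM in ONC, and 0.868, 0.945 and 1.14 RPKM in TPEN. Here too the groups did not overlap, in the same order as for Sema4g. The log2 FC was 0.81 (SE 0.14, adjusted p = 0.00904) in TPEN/ONC, held in all 15 alternative fits that tested it, and 0.53 (SE 0.14, adjusted p = 0.036) in TPEN/Ctrl. The latter was lost in 11 of 15 alternatives, among them the fits without each single library other than TPEN replicate 1 (adjusted p of 0.0514 to 0.118). In ONC/Ctrl the value was -0.28 (adjusted p = 0.219).

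Epha10, an Eph receptor that lacks kinase activity, lies at chr4:124880899-124917800 on the + strand. Its level was 0.644, 0.637 and 0.678 RPKM in Ctrl, 0.640, 0.453 and 0.538 RPKM in ONC, and 1.0002, 0.850 and 1.01 RPKM in TPEN. The TPEN libraries were above all others, and the lowest Ctrl library was close to the highest ONC library. The log2 FC in TPEN/ONC was 0.72 (SE 0.15, adjusted p = 0.0187), and it lost its call without ONC replicate 2, ONC replicate 3, TPEN replicate 1 or TPEN replicate 3 (adjusted p of 0.0579 to 0.0703). In TPEN/Ctrl it was 0.48 (adjusted p = 0.0624).

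**Figure D4:**
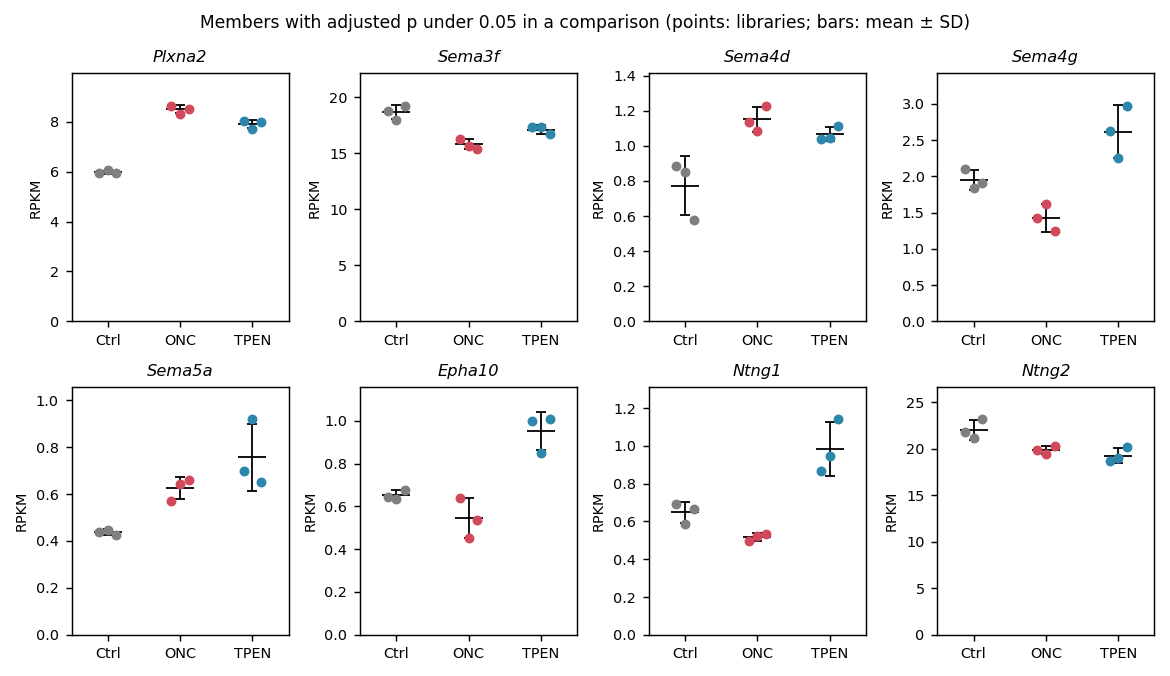
RPKM of the 8 guidance genes with an adjusted p under 0.05 in at least 1 comparison, with a point for each library and bars for the mean ± SD of 3 libraries; each panel starts at 0 and has its own scale. Plxna2 is higher in both crush groups than in Ctrl, and Sema4g, Ntng1 and Epha10 are highest in TPEN.

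Sequences before the RefSeq starts of Sema4g, Ntng1 and Epha10, the 3 genes higher in TPEN/ONC, were searched for the metal response element. That element is bound by MTF1, a factor through which zinc acts on transcription. The part of MTF1 in the values of these genes was not tested. The windows are the 250 bases before the RefSeq start (GRCm38.p6), read on the gene's strand, at chr19:44989094-44989343 for Sema4g, chr3:110143473-110143722 for Ntng1 and chr4:124881535-124881784 for Epha10. The exons in the deposited table begin upstream of these RefSeq starts for Sema4g, Ntng1 and Epha10, so most or all of each of the 3 windows lies inside the gene as given above. Sema5a, at chr15:32244563-32244812, is added as an example of marked letters, picked because its window holds 2 matches. It was itself higher in TPEN/Ctrl (log2 FC of 0.66, adjusted p = 0.0207), while its 0.23 in TPEN/ONC did not pass (adjusted p = 0.444). Capitals mark TGCACNC or TGCGCNC on either strand.
Sema4g: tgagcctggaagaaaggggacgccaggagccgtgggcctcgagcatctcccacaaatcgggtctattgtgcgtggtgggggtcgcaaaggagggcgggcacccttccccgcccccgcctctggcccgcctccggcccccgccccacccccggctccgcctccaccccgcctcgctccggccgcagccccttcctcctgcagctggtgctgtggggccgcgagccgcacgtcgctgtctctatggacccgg
Ntng1: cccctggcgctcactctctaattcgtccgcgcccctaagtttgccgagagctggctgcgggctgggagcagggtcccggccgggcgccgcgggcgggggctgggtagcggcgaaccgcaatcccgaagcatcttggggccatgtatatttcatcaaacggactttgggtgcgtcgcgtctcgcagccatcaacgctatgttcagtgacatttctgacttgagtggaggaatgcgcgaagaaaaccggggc
Epha10: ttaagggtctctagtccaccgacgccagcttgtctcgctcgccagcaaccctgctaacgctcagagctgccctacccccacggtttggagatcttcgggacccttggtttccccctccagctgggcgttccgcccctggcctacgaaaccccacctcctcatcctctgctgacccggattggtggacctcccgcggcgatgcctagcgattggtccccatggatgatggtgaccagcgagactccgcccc
Sema5a: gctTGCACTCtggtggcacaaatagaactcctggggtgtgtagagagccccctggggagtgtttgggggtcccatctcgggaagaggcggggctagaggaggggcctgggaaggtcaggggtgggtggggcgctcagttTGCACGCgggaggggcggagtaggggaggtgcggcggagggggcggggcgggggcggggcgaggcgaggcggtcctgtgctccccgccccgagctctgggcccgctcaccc

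None of the 3 windows of the genes that rose in TPEN/ONC held these letters. They were rich in CpG, with 24, 25 and 17 CpG dinucleotides for Sema4g, Ntng1 and Epha10. RefSeq windows were found for 39 of the 47 guidance genes, 48 windows in all, and the metal response element was in 15 of them (31.2%), against 21.4% of 32851 windows of all genes. The AP-1 letters TGACTCA, searched on both strands, were in 1 of 48 (4.5% of all windows), and the CRX letters TAATCC, of a factor of photoreceptors, in 0 of 48 (6.3% of all windows). A match is a stretch of letters and not a shown binding site, and its lack says nothing about the factor.

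Among genes of lower level, Sema6a was the 1 more that passed in TPEN/ONC without the filter, 4 of 47 where 7.68% of all genes passed (3.15% higher, 4.52% lower). This transmembrane semaphorin, a ligand of plexins A2 and A4, was at 0.351, 0.429 and 0.346 RPKM in Ctrl, 0.302, 0.347 and 0.412 RPKM in ONC, and 0.638, 0.590 and 0.565 RPKM in TPEN. The TPEN libraries were above all others. Its log2 FC was 0.63 in TPEN/ONC (adjusted p = 0.0316) and 0.56 in TPEN/Ctrl (adjusted p = 0.0348), and these were lost in 7 and 9 of 14 alternatives. The first was lost without ONC replicate 1, ONC replicate 2 or any 1 TPEN library (adjusted p of 0.0735 to 0.108), and the second without Ctrl replicate 1, Ctrl replicate 3, ONC replicate 2 or any 1 TPEN library (0.0521 to 0.102). Robo1, a Slit receptor, was at 0.177, 0.195 and 0.158 RPKM in Ctrl, 0.196, 0.150 and 0.219 RPKM in ONC, and 0.304, 0.274 and 0.371 RPKM in TPEN. From 24 to 56 reads, its TPEN libraries were above all others, with a log2 FC of 0.53 in TPEN/ONC (adjusted p = 0.0839) and 0.59 in TPEN/Ctrl (adjusted p = 0.0421). The latter was lost in 11 of 14 alternatives, among them the fits without each single library other than ONC replicate 2 (0.0525 to 0.133). Robo2, the other Slit receptor, was at 0.456 to 0.598 RPKM with overlap between all groups, and their ligand Slit2 was at 0.0753 to 0.161 RPKM.

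Ephb1, the Eph receptor that turns RGC axons away from the midline, was the most abundant Eph gene. It was at 1.36, 1.75 and 1.66 RPKM in Ctrl, 1.98, 1.93 and 1.80 RPKM in ONC, and 1.23, 1.48 and 1.54 RPKM in TPEN. ONC libraries were above all others, but the log2 FC of -0.41 in TPEN/ONC did not pass (adjusted p = 0.085), nor did that of 0.25 in ONC/Ctrl (adjusted p = 0.202). The exons of Ephb1 overlap Gm26846 on the opposite strand. The other Eph receptors tested were Ephb6, a kinase-dead receptor at 1.18 to 1.57 RPKM, Epha7, Epha5, Epha4 and Epha8, the last 4 at 0.425 to 1.48 RPKM. None of these 5 passed in any comparison, and neither did any of the 3 ephrins tested, of which Efnb3 was at 1.03 to 1.85 RPKM and Efnb1 at 0.652 to 1.21 RPKM. The low genes Ephb2, Ephb3 and Efna5 passed in no comparison without the filter. Among the semaphorins, neither the tested Sema6c, Sema4c, Sema4b and Sema3e, at 0.419 to 2.86 RPKM, nor the low Sema3b and Sema5b passed in any comparison.

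Cone markers were highest in TPEN. The summed level of all 6 cone markers was 199 to 202 RPKM in TPEN, 111 to 119 RPKM in ONC and 128 to 135 RPKM in Ctrl, which is the order of the group means of Sema4g, Ntng1 and Epha10, and no cone marker was at 0. ONC was also the lowest group in the amacrine, bipolar and rod lists, but TPEN did not lie above Ctrl in them. The 7 of 8 amacrine markers listed, mostly Slc6a9, had sums of 33.3 to 35.3 RPKM in TPEN and 32.7 to 34.7 RPKM in Ctrl, which overlapped. In ONC they had 28.2 to 29.1 RPKM. The 8 bipolar markers also had ONC lowest, at 76.6 to 77.3 RPKM, with 79.9 to 84.3 RPKM in TPEN and 83.4 to 86.0 RPKM in Ctrl. The RGC list was lowest in TPEN, with 285 to 299 RPKM in TPEN, 367 to 388 RPKM in ONC and 358 to 368 RPKM in Ctrl. Most of this sum was Nefl. Rbpms was at 0.495 to 0.688 RPKM in Ctrl, 0.357 to 0.444 RPKM in ONC and 0.246 to 0.449 RPKM in TPEN. Pou4f1 was at 0.405 to 0.678 RPKM in Ctrl, 0.0746 to 0.308 RPKM in ONC and 0.225 to 0.268 RPKM in TPEN. Slc17a6 was at 0.185 to 0.321 RPKM in Ctrl, 0.347 to 0.484 RPKM in ONC and 0.297 to 0.534 RPKM in TPEN. Within the RGC list Thy1, which encodes the CD90 used in the sort, was at 6.70 to 7.58 RPKM in TPEN, 5.26 to 5.54 RPKM in ONC and 4.54 to 4.96 RPKM in Ctrl. The part of these cell types in the values of Sema4g, Ntng1, Epha10, Sema6a and Robo1 was not tested.

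**Figure D5:**
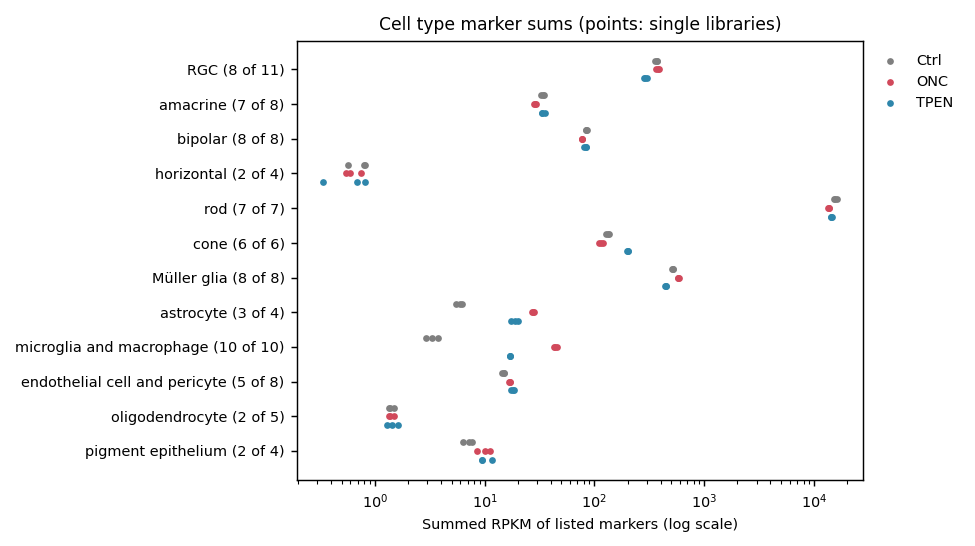
Summed RPKM of the listed markers of each retinal cell type, on a log axis, with a point for each library; the numbers in brackets give the markers listed of those used. Rod markers are highest in every library, microglia and macrophage markers run from 2.91 RPKM in Ctrl to 45.6 RPKM in ONC, and cone markers are highest in TPEN.

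Against uninjured retina, TPEN libraries differed in 4 of 28 tested guidance genes, where 13.4% of all genes did: Plxna2, Sema5a and Ntng1 were higher and Ntng2 was lower. Of all genes tested, 8.36% were higher and 5.01% lower. Sema5a was the 1 of them past 1.5-fold, and its mean level in Ctrl was below the 0.5 RPKM minimum. Over all genes, 3.45% passed both limits upward and 0.457% downward. After quantile normalization 1 guidance gene was called higher (Plxna2) and 2 lower (Ntng2 and Sema3f). Over the 28 genes, 14 were above 0 with a median log2 FC of 0.04, against 0.01 over all genes, and 10 passed an unadjusted p under 0.05 (35.7%), against 27.2% of all genes. Without the filter, 8 of 47 passed, where 13.5% of all genes did (8.92% higher, 4.59% lower). TPEN/Ctrl shares the TPEN libraries with TPEN/ONC and the Ctrl libraries with ONC/Ctrl.

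Sema5a, a transmembrane semaphorin that limits the growth of RGC axons, lies at chr15:32244813-32696341 on the + strand. It was at 0.437, 0.448 and 0.424 RPKM in Ctrl, 0.572, 0.645 and 0.661 RPKM in ONC, and 0.699, 0.920 and 0.649 RPKM in TPEN. Both crush groups lay above Ctrl, and they overlapped each other. The log2 FC was 0.66 in TPEN/Ctrl (SE 0.16, adjusted p = 0.0207), 0.43 in ONC/Ctrl (adjusted p = 0.0844) and 0.23 in TPEN/ONC (adjusted p = 0.444). The call in TPEN/Ctrl was lost in 5 of 15 alternatives, among them the fits without any 1 Ctrl library (adjusted p of 0.0524 to 0.0574) or without TPEN replicate 2 (0.0705).

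Ntng2, which encodes netrin-G2, the partner of Lrrc4, was the most abundant guidance gene, at chr2:29194541-29253005 on the - strand. Its level was 21.8, 21.1 and 23.2 RPKM in Ctrl, 19.8, 19.5 and 20.3 RPKM in ONC, and 18.6, 19.0 and 20.2 RPKM in TPEN. Both crush groups lay below Ctrl and overlapped each other. The log2 FC in TPEN/Ctrl was -0.19 (SE 0.05, adjusted p = 0.0245), while -0.15 in ONC/Ctrl did not pass (adjusted p = 0.054). The call was lost in 5 of 16 alternatives, with an adjusted p of 0.0581 without Ctrl replicate 1, 0.0686 without Ctrl replicate 3, 0.0816 without TPEN replicate 1 and 0.0758 without TPEN replicate 2. The exons of Ntng2 overlap 6530402F18Rik on the opposite strand. Ntn4, a secreted netrin of basement membranes, was at 1.26 to 2.04 RPKM and did not pass in any comparison.

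Epha2, an Eph receptor of epithelia and vessels, passed in TPEN/Ctrl without the filter. It was at 0.305, 0.194 and 0.171 RPKM in Ctrl, 0.335, 0.373 and 0.317 RPKM in ONC, and 0.503, 0.559 and 0.365 RPKM in TPEN, from 16 to 58 reads. Both crush groups lay above Ctrl. Its log2 FC was 0.84 (SE 0.20, adjusted p = 0.0206), and it was 0.47 in ONC/Ctrl (adjusted p = 0.137). The call was lost in 6 of 14 alternatives, among them the fits without Ctrl replicate 2, Ctrl replicate 3, TPEN replicate 1 or TPEN replicate 2 (0.0663 to 0.0732). The receptors of secreted netrins gave no call in any comparison: Unc5a was at 2.82 to 3.81 RPKM, Unc5b at 0.260 to 0.431 RPKM, and Unc5c and Dcc at 0.127 to 0.440 RPKM. Unc5d, named here after its values were seen, was at 0.165, 0.272 and 0.205 RPKM in Ctrl, 0.142, 0.123 and 0.198 RPKM in ONC, and 0.326, 0.283 and 0.294 RPKM in TPEN, from 26 to 60 reads. Its TPEN libraries were above all others, and the mean was 1.95 times as high in TPEN as in ONC. The log2 FC of 0.67 in TPEN/ONC did not pass (SE 0.18, adjusted p = 0.0557).

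Genes that act beside or downstream of these receptors were listed from textbook roles, 98 in all, of which 92 were listed in the table and 75 tested. In ONC/Ctrl, 17 of the 75 were upregulated and 4 downregulated, where 11.7% and 6.97% of all genes tested were. In TPEN/ONC 1 was upregulated and 4 downregulated, and in TPEN/Ctrl 16 and 2. The shares over all genes tested were 3.24% and 4.14% in TPEN/ONC and 8.36% and 5.01% in TPEN/Ctrl. After quantile normalization 4 were upregulated and 4 downregulated in TPEN/ONC, and 12 and 4 in TPEN/Ctrl. The genes downregulated in TPEN/ONC were Cfl1, Dpysl3, Gap43 and Ptpn11, and the gene upregulated was Ptprf, a receptor phosphatase named here after its values were seen.

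Gap43, a protein of growth cones, was at 7.79, 7.78 and 7.78 RPKM in Ctrl, 24.8, 23.6 and 23.4 RPKM in ONC, and 19.4, 20.01 and 19.6 RPKM in TPEN. The groups were far apart, with a log2 FC of 1.61 in ONC/Ctrl (adjusted p = 4.9e-09) and -0.28 in TPEN/ONC (adjusted p = 0.0021). Rock2, a kinase that acts on the actin cytoskeleton, rose by 0.52 on the log2 scale in ONC/Ctrl (adjusted p = 3.9e-05). Cfl1, the actin-severing cofilin, rose by 0.37 in ONC/Ctrl (adjusted p = 6.9e-05), and its value in TPEN/ONC was -0.18 (adjusted p = 0.0139).

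Of 15 Eph signalling genes tested, 6 rose in ONC/Ctrl and none fell, and no Eph receptor or ephrin passed. The shares over all genes tested were 11.7% higher and 6.97% lower. Of these 6, Fyn, Ngef and Ptpn11 stayed called when any 1 library was left out. Sipa1l1, Src and Vav2 lost their calls without Ctrl replicate 1, Ctrl replicate 2, ONC replicate 2 or ONC replicate 3. Ptpn11, the phosphatase SHP2, had a log2 FC of 0.24 (adjusted p = 4.2e-04), Fyn, a Src-family kinase, 0.44 (adjusted p = 0.00229), and Ngef, the exchange factor ephexin, 0.71 (adjusted p = 0.0119). Among 16 semaphorin signalling genes, 3 rose (18.8%) and none fell. Rras, the GTPase that plexins switch off, was at 2.23, 2.08 and 2.13 RPKM in Ctrl, 3.92, 4.89 and 5.32 RPKM in ONC, and 3.04, 4.46 and 3.22 RPKM in TPEN. Its log2 FC in ONC/Ctrl was 1.09 (adjusted p = 8.0e-04), and those of Dpysl3, a collapsin response mediator, and Arhgef12, an exchange factor bound by B plexins, were 0.12 (adjusted p = 0.00973) and 0.15 (adjusted p = 0.0329).

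Of 15 Slit and netrin signalling genes, 2 rose in ONC/Ctrl (13.3%) and 1 fell (6.7%), near the shares over all genes tested of 11.7% and 6.97%. Dock1, a Rac exchange factor that acts behind Dcc, had a log2 FC of 0.79 (adjusted p = 1.7e-04), and Vasp, an actin elongation factor, 0.73 (adjusted p = 0.00164). Ablim1, an actin-binding LIM protein, fell by 0.21 on the log2 scale (adjusted p = 0.013). In the list of other guidance ligands and receptors, 15 genes were tested, 1 rose and 3 fell. Vegfa, which encodes a vessel growth factor that also binds Nrp1, was at 33.9, 33.4 and 34.7 RPKM in Ctrl, 26.2, 25.6 and 25.8 RPKM in ONC, and 27.5, 27.2 and 27.8 RPKM in TPEN. Both crush groups lay below Ctrl, with a log2 FC of -0.39 in ONC/Ctrl (adjusted p = 1.5e-05). Its receptor Kdr rose by 0.23 (adjusted p = 0.00759), and the adhesion receptor Dscaml1 fell by 0.21 (adjusted p = 0.00245), both on the log2 scale. Kdr is also among the endothelial markers, of which 5 of 8 were listed, with sums of 14.5 to 15.2 RPKM in Ctrl and 16.8 to 17.0 RPKM in ONC. Most of that sum was Kdr itself, at 10.3 to 11.1 RPKM in Ctrl and 12.3 to 12.7 RPKM in ONC. Pecam1, Flt1 and Rgs5 overlapped between Ctrl and ONC, and Pdgfrb was lower in ONC.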

How the data were processed

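The deposited table gives the level of each gene in each library as RPKM, which the authors computed from reads by exon length and library total, and the exon length. Per the submitters' processing notes, reads were trimmed with Trimmomatic 0.36. The authors mapped reads of stranded mRNA libraries to GRCm38/mm10 with STAR. The counting program, the annotation, the use of strand and the handling of molecular identifiers are not given in the sources used here. The log2 fold changes, p-values and FDR of the authors' own comparisons (edgeR) are deposited in the same table and were not used.

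Every RPKM value times exon length was a whole multiple of 1 step per library (tolerance 0.01), which gave whole reads and library totals. A count of 0 allows up to 3 reads, or 0.130 to 0.150 RPM, for counting error only. All 9 libraries entered 1 limma fit (limma 3.58.1, R 4.3.3, variance trend) on log2(RPKM + 0.1) of the 13566 genes whose mean level reached 0.5 RPKM, with Benjamini-Hochberg adjustment over all of them. The added 0.1 makes log2 fold changes of low genes smaller than the ratios of their means. Called means an adjusted p under 0.05. The authors tested counts. The tests here used the deposited RPKM, with voom on the whole reads as an alternative. Tables and plots used Python 3.11.15, numpy 2.4.6, pandas 2.3.3 and matplotlib 3.10.9.

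Named guidance genes are those called in any comparison and the 2 of highest mean RPKM in each of 8 ligand or receptor classes, with exceptions said in the text. At most 3 genes of each pathway list are named, by smallest adjusted p in ONC/Ctrl, beside those called in TPEN/ONC. The count of 1 gene list and the values of 1 marker gene are not reported here. Members, lists and tests were chosen with earlier results of these data known. Data were also simulated with the mean levels of all 9 libraries, an assumed spread and changes set in ONC. There, the fit on 13566 genes called 63 of 100 genes changed 1.5-fold, 87 of 100 changed 2-fold and 5 of 13366 unchanged genes. The changed genes were drawn from all tested genes, with a median level of 5.08 RPKM, against 1.40 RPKM for the tested guidance genes. These rates therefore do not carry over to guidance genes. Alternatives were quantile normalization, an added 1 RPKM, a minimum of 1 RPKM or none, the compared libraries alone, a replicate block, leaving out each library, limma's voom on whole reads, and a 1.5-fold threshold.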

Additional observations from a re-analysis of the deposited data

How the results depend on the processing

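Of 18 called values of named guidance genes, 269 alternative fits kept the direction in every case; 169 kept the call and 100 lost it. Those that kept it in every fit that tested them were Plxna2 in ONC/Ctrl and TPEN/Ctrl, Sema3f in ONC/Ctrl, Sema4g and Ntng1 in TPEN/ONC, and Nrp1 in ONC/Ctrl. Of 33 values not called, 502 fits kept 474 as they were, brought 21 past the threshold and reversed 7. The number of guidance genes called in ONC/Ctrl (4, of which 2 higher) was 6 after quantile normalization (1 higher), 7 without a filter, 2 with the 6 libraries compared alone, 2 to 4 when a library was left out, 9 with voom and 0 at 1.5-fold. In TPEN/ONC (3) it was 1 at a minimum of 1 RPKM. In TPEN/Ctrl (4) it was 8 without a filter, 2 at a minimum of 1 RPKM, 2 with 6 libraries, 1 to 3 when a library was left out, 9 with voom and 1 at 1.5-fold. Without Ctrl replicate 3 or ONC replicate 1, ONC/Ctrl kept 2 calls, and without Ctrl replicate 1, Ctrl replicate 3 or TPEN replicate 2, TPEN/Ctrl kept 1, Plxna2.

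Among the other pathway genes, 21 were called in ONC/Ctrl and 8 at 1.5-fold. In TPEN/ONC 5 were called, 8 after quantile normalization, 13 with voom and 1 at 1.5-fold. In TPEN/Ctrl 18 were called, 5 at 1.5-fold, and 11 to 17 when a library was left out, with 11 without Ctrl replicate 1 or TPEN replicate 1. The reversed log2 fold changes, none of them called, were Plxna3 in TPEN/Ctrl (-0.022) and Robo1 in ONC/Ctrl (-0.37) after quantile normalization, Robo1 in ONC/Ctrl without ONC replicate 3 (-0.023), Plxnb1 in TPEN/ONC without ONC replicate 1 (-0.014) or TPEN replicate 1 (-0.016; range when a library was left out -0.016 to 0.043), and Sema6a in ONC/Ctrl without Ctrl replicate 2 (0.010) or ONC replicate 1 (0.014). The fits of genes below the filter were added after seeing the data. The cause of these changes was not tested.

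The replicate numbers did not pair the libraries: the deviations of same-numbered libraries correlated at -0.0623 to 0.0268. With the number as a replicate block, 3 guidance genes were called in each of ONC/Ctrl, TPEN/ONC and TPEN/Ctrl, and 20, 6 and 13 other pathway genes. In ONC/Ctrl the block took Sema4d (adjusted p = 0.0736) and Sema4g (0.0882) out of the calls and added Ntng2 (0.0376), and in TPEN/Ctrl it took Ntng1 out (0.0652). Depth limits genes near 0.1 RPKM, and 3 libraries a group limit the changes that could be called. In 6 guidance genes (Ephb1, Ntng2, Plxna1, Plxnb1, Sema4c and Unc5a), exons overlap a gene on the opposite strand, so their reads are uncertain.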
